A study of Mus musculus with 12 samples.

Results

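Genes that are typical of glial, vascular and immune cells were followed in RNA-seq libraries of hand-collected cortical neurons. They were listed by name as typical of such cells, with earlier results of these data known, and they make up 7 of the 35129 gene entries counted. Apod stands for glia, Cldn5, Col4a1 and Col4a2 for endothelium and its basement membrane, Myh11 for mural cells, and Hcls1 and Cd86 for microglia and blood cells.

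Neurons of the cortex lie close to capillaries, astrocyte endfeet, oligodendrocytes and microglia, and cells freed from a slice by enzyme digestion can carry pieces of these neighbours. RNA of genes that neurons hardly use is therefore a common gauge of purity in sorted neurons. The gauge has limits, because few such genes are silent in every neuron, and because a handful of molecules can be amplified unevenly when little RNA is present.

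The libraries came from male mice of 5 to 7 weeks. Sst-neurons were taken from GIN mice on an FVB background, in which eGFP marks a group of somatostatin interneurons, and Thy1-neurons from YFPH mice on a B6 background, in which YFP marks layer V pyramidal neurons. Mice of both lines carried a mini pump for 14 days that held saline (groups Sst and Thy1) or nicotine hydrogen tartrate at 48 mg/kg/d (groups Sst+Nic and Thy1+Nic). Each library held 30 cells of a single mouse. The labels give 3 mice for each of the 4 groups, and 10 of the libraries entered the analysis. Sst and Thy1+Nic had all 3 replicates, whereas Sst+Nic and Thy1 had replicates 2 and 3, their replicate 1 being not used here. Since each cell type came from its own mouse line, cell type and strain cannot be told apart.

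The libraries held between 2915738 and 4878326 counted fragments. Levels are fragments scaled to a library total of 1e6 (CPM), with 95% Wilson intervals where quoted. A count of 0 is read as up to 3 counts, which allowed between 0.615 and 1.03 CPM depending on the library. Intervals and limits cover counting error only, because reads amplified by PCR without molecular identifiers are not independent molecules. Somatostatin, the marker of the Sst-neurons, was between 53779 and 126088 CPM in the 5 Sst-neuron libraries. In the Thy1-neuron libraries it was between 1.15 and 49.2 CPM, except in Thy1 replicate 3 with 3795 CPM. All 7 genes lie in the chromosome stretches where entries were checked by name against the study's own group values. The stretches were chosen for values of the study's order, and none of the 7 genes was itself compared. On chromosome 16, which holds 5 of the genes, 17 of 47 comparisons were within 1% and the range was 30.8% to 119%. Outside the stretches most entries held far fewer fragments than the study's values and their names may be wrong, so library totals, and shares of all entries called, rest in part on entries whose names do not hold. The counted fragments came to 20.0% to 27.3% of the uniquely mapped read pairs. CPM are thus relative to what was counted. With fragments divided by uniquely mapped reads, the mean of Apod in Sst, 106 CPM, became 13.6. These reads are counted singly and not as pairs, so part of that drop is a change of unit and not uncounted fragments.

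Apod encodes apolipoprotein D, a lipid-binding secreted protein made mostly by oligodendrocytes, astrocytes and perivascular cells. The gene lies at chr16:31296192-31314808 (GRCm38, minus strand). In Sst it was at 20.9 CPM in replicate 1, 103 CPM in replicate 2 and 193 CPM in replicate 3. In Sst+Nic it was at 260 CPM in replicate 2 and 402 CPM in replicate 3. Both Sst+Nic libraries thus lay above all 3 Sst libraries. In Thy1 it was at 0 in replicate 2 (limit 0.859 CPM) and at 84.3 CPM in replicate 3. In Thy1+Nic it was at 194 CPM in replicate 1, 88.6 CPM in replicate 2 and 0 in replicate 3 (limit 0.884 CPM). All 5 Sst-neuron libraries held Apod, and the Thy1-neuron libraries either held none or levels within the range of the Sst-neuron libraries. The mean was 196 ± 147 CPM (SD, n = 5) in Sst-neurons and 73.4 ± 80.1 CPM (SD, n = 5) in Thy1-neurons.

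Cldn5 encodes claudin 5, the tight junction protein that seals brain endothelium and that serves as its defining marker. It lies at chr16:18776847-18778262 (plus strand). Cldn5 was found in 4 of 10 libraries. It reached 35.7 CPM in Sst replicate 2 (140 fragments, 95% interval 30.3 to 42.1), 13.1 CPM in Sst+Nic replicate 3, 12.1 CPM in Thy1+Nic replicate 1 and 7.36 CPM in Thy1+Nic replicate 3. It was at 0 in the other 6 libraries, where the limits ran from 0.709 to 1.03 CPM. Each of the groups Sst, Sst+Nic and Thy1+Nic held libraries with and without Cldn5, and both Thy1 libraries were without it. In bulk libraries such as these, fewer cells of a type and less RNA per cell cannot be told apart.

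Col4a1 and Col4a2 encode the alpha 1 and alpha 2 chains of collagen IV, which wind together into the main collagen of the vascular basement membrane. Col4a1 lies at chr8:11198423-11312826 on the minus strand and Col4a2 at chr8:11312805-11449287 on the plus strand, so that they point away from each other. By these GENCODE positions their first exons share 22 bases. In RefSeq Col4a1 reaches to chr8:11312889, so that the genes share a longer stretch there. The 22 bases are shown as the place where the genes meet. The library kit is not known to keep the strand, and whether the overlap bears on the counts was not tested. They are given in the direction of Col4a2, from chr8:11312805-11312826 (RefSeq, GRCm38.p6):
Col4a1 and Col4a2: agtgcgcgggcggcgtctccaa
The annotation also places the antisense gene Gm15418 over the Col4a1 locus, with 0 bases in common between exons, and Gm15419 over the Col4a2 locus, with 43 exon bases in common. The 250 bases before the start of each gene hold 74.4% G and C for Col4a1 and 73.6% for Col4a2, against a median of 52.4% over 32851 promoter windows of the same length. For Col4a1 the start is taken at chr8:11312826, so that part of its window lies inside the longer RefSeq gene. Both windows hold a CCAAT box (CCAAT or ATTGG), as do 33.9% of all windows.

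Col4a2 was the only one of the 7 genes with a count in every library. In Sst it was at 35.6, 31.1 and 6.48 CPM in replicates 1, 2 and 3, and in Sst+Nic at 34.98 and 19.5 CPM in replicates 2 and 3. In Thy1 it was at 92.2 and 28.8 CPM in replicates 2 and 3, and in Thy1+Nic at 75.4, 32.8 and 80.7 CPM in replicates 1, 2 and 3. In Thy1-neurons 3 libraries lay above every Sst-neuron library, and the remaining 2 lay inside the Sst-neuron range. The mean was 25.5 ± 12.5 CPM (SD, n = 5) in Sst-neurons and 62.0 ± 29.1 CPM (SD, n = 5) in Thy1-neurons.

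Col4a1 was found in 9 of 10 libraries. In Sst it was at 0.995 CPM in replicate 1 (4 fragments), 10.5 CPM in replicate 2 and 25.9 CPM in replicate 3. In Sst+Nic it was at 0 in replicate 2 (limit 1.03 CPM) and at 4.92 CPM in replicate 3. The Thy1 libraries held 55.3 CPM in replicate 2 and 8.24 CPM in replicate 3. The Thy1+Nic libraries held 10.4, 28.1 and 18.9 CPM in replicates 1, 2 and 3, all above the Sst+Nic libraries. The Sst and Thy1 groups overlapped.

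The chains did not keep a fixed ratio. Col4a2 had more fragments than Col4a1 in 9 of 10 libraries, and per kb of exon (7.46 kb for Col4a1 and 6.62 kb for Col4a2) the ratio lay between 1.32 in Thy1+Nic replicate 2 and 40.3 in Sst replicate 1 where both were counted. In Sst replicate 3 the order turned, with 24 fragments of Col4a2 and 96 of Col4a1 (per kb ratio 0.282).

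Myh11 encodes the smooth muscle myosin heavy chain, which marks arteriolar smooth muscle and some pericytes (chr16:14194535-14291372, minus strand). It was found in 2 of 10 libraries, with 5 fragments in Thy1 replicate 3 (1.37 CPM, 95% interval 0.586 to 3.21) and 23 fragments in Thy1+Nic replicate 3 (6.78 CPM, 4.52 to 10.2). All 5 Sst-neuron libraries were at 0, as were the other 3 Thy1-neuron libraries, with limits between 0.615 and 1.03 CPM.

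Hcls1 encodes a cortactin-related actin regulator of blood cells and microglia (chr16:36934983-36963212, plus strand). It was found in 2 of 10 libraries, with 9 fragments in Sst replicate 3 (2.43 CPM, 95% interval 1.28 to 4.62) and 8 fragments in Thy1+Nic replicate 1 (2.30 CPM, 1.17 to 4.55). The counts are so low that the intervals overlap almost wholly.

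Cd86 encodes a costimulatory membrane protein of microglia and other antigen-presenting cells (chr16:36603869-36666081, minus strand). It reached 50.5 CPM in Sst replicate 3 (187 fragments, 95% interval 43.7 to 58.2). It was at 7.20 CPM in Thy1+Nic replicate 1, at 5.12 CPM in Sst+Nic replicate 3 and at 0.275 CPM in Thy1 replicate 3, the last from a single fragment. The other 6 libraries were at 0. Sst replicate 3 alone held 80.0% of the summed Cd86 level, and both libraries with Hcls1 also held Cd86.

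**Figure D1:**
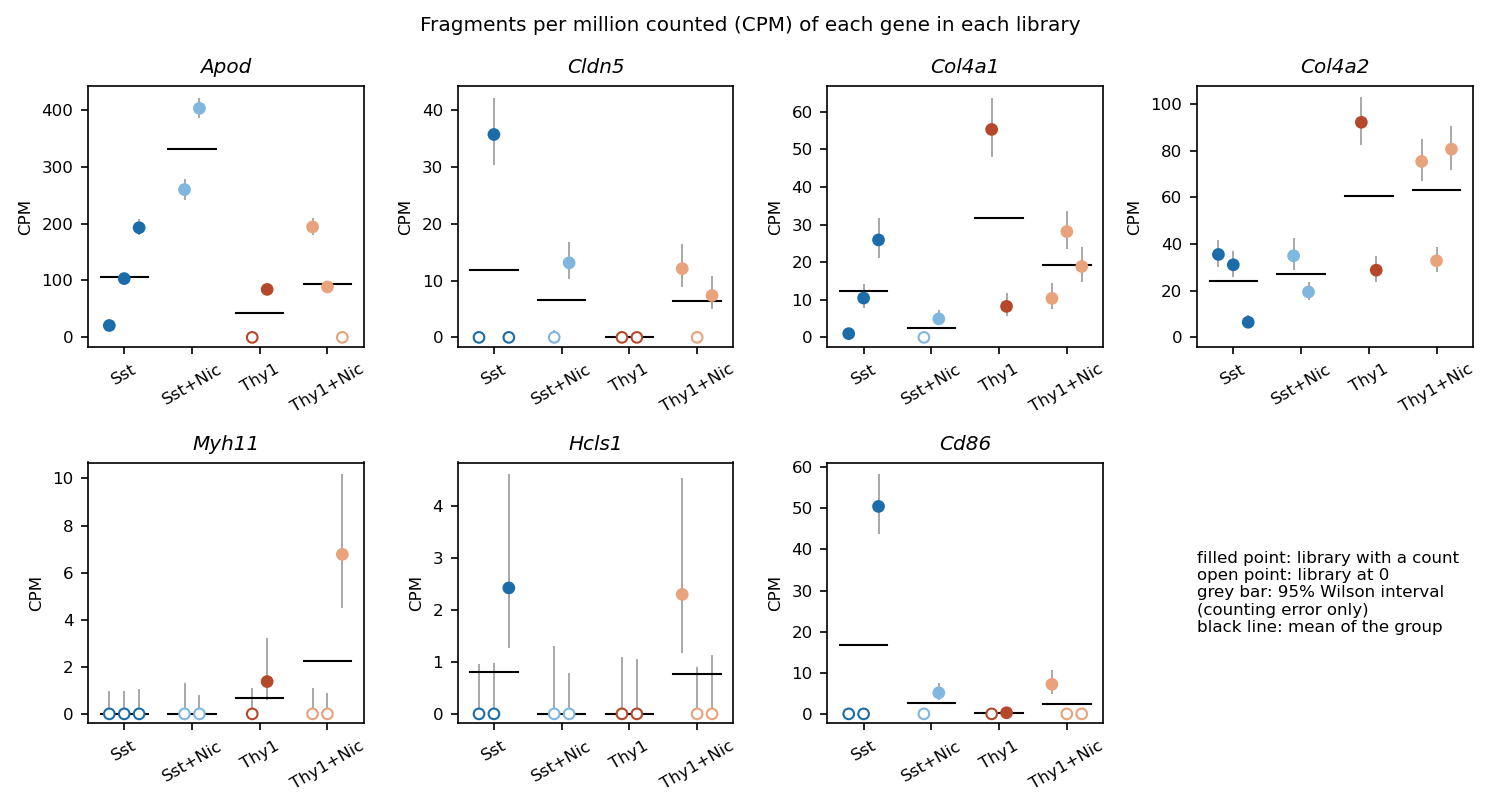
Each panel plots the level of a gene in CPM (y axis, linear) by group (x axis). Points are libraries, open where the count was 0, grey bars are 95% Wilson intervals for counting error and black lines are group means; Col4a2 is above 0 in all 10 libraries, while Cldn5 and Cd86 are at 0 in 6 and Myh11 and Hcls1 in 8.

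Over all 70 pairs of a gene and a library, 39 held a count (55.7%). The same share was 58.3% over the 891 nuclear entries of the checked stretches. To compare levels between genes, the mean CPM was divided by the exon length in kb and ranked among 865 of these entries. Apod was at 52.2 CPM per kb, above 87.4% of the entries. Col4a2 was at 6.61 CPM per kb (61.4%), Cldn5 at 4.82 (57.6%) and Col4a1 at 2.19 (48.4%). Cd86 was at 1.72 CPM per kb (46.0%), Hcls1 at 0.187 (33.2%) and Myh11 at 0.107 (30.9%). The ranges over libraries of all neighbours in this order overlapped. Single libraries carried some of these means: without Sst replicate 2 Cldn5 was at 2.56 CPM per kb (50.4%), and without Sst replicate 3 Cd86 was at 0.382 (36.3%) and Hcls1 at 0.101 (30.5%). Without Thy1+Nic replicate 3 Myh11 was at 0.020 CPM per kb (27.1%). On the same scale of CPM per kb, the neuronal growth-associated gene Gap43 was at 2357 and the amyloid precursor gene App at 201, whereas the neuronal adhesion gene Lsamp, at 15.5, lay below Apod.

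The number of the 7 genes found in a library ran from 2 in Sst+Nic replicate 2 and Thy1 replicate 2 to 6 in Thy1+Nic replicate 1. Together they took between 0.00574% of the fragments in Sst replicate 1 and 0.0445% in Sst+Nic replicate 3. In the latter library 402 of 445 CPM were Apod. The sum over Cldn5, Col4a1 and Col4a2 was 48.7 ± 24.8 CPM (SD, n = 3) over the Sst libraries and 36.2 ± 1.79 CPM (SD, n = 2) over the Sst+Nic libraries. It was 92.3 ± 78.1 CPM (SD, n = 2) over the Thy1 libraries and 88.6 ± 24.4 CPM (SD, n = 3) over the Thy1+Nic libraries. The lowest Thy1+Nic library, at 61.0 CPM, lay above both Sst+Nic libraries, while the Sst and Thy1 libraries overlapped. Mitochondrially encoded genes took between 16.3% and 22.1% of the fragments in Sst-neurons and between 31.4% and 38.5% in Thy1-neurons. With these genes taken out of the totals, the sum was 44.3 CPM in Sst+Nic and 135 CPM in Thy1+Nic.

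**Figure D2:**
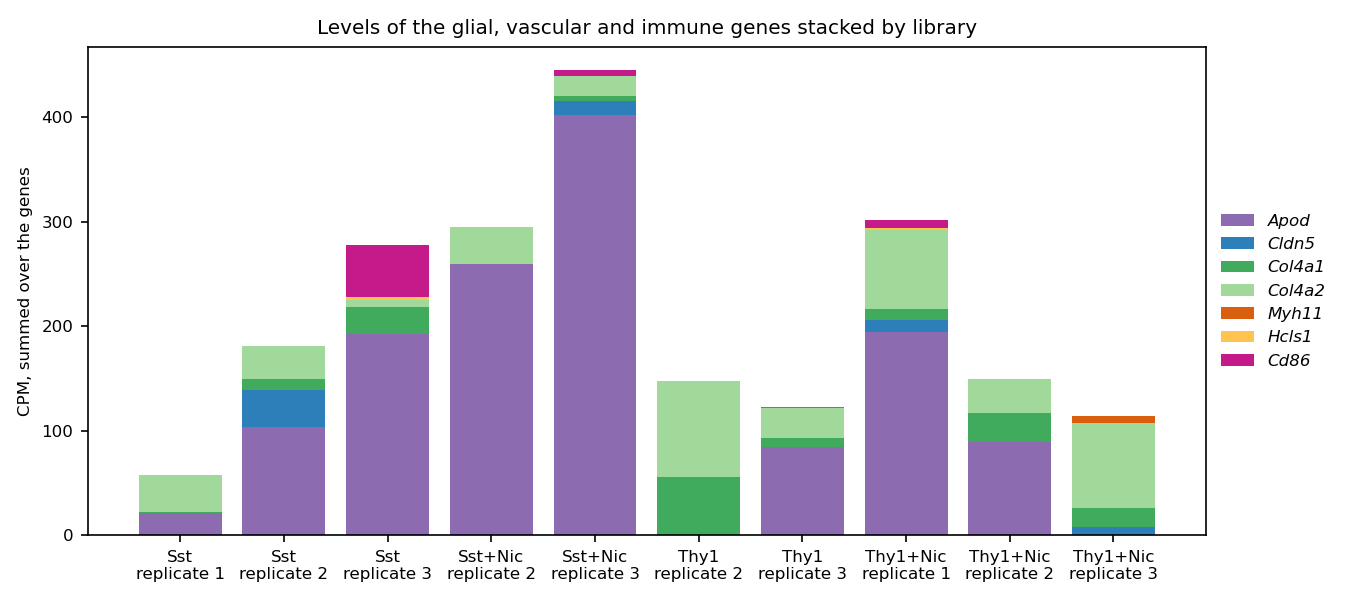
Stacked bars give the level of each of the 7 genes in CPM (y axis, from 0) for each of the 10 libraries (x axis). Apod makes up most of the bar in Sst+Nic replicate 3 (402 of 445 CPM) and is missing in Thy1 replicate 2 and Thy1+Nic replicate 3, where the collagen genes lead.

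The quasi-likelihood test of edgeR was fitted to all entries that passed a filter on low counts. Calls required a Benjamini-Hochberg adjusted p below 0.05 together with a log2 fold change beyond 1 in either direction. Myh11 and Hcls1 passed the filter in none of the comparisons, and Cldn5 and Cd86 in some. The design has 2 or 3 libraries in a group, and p-values measure the spread between mice. Standard errors (SE) of edgeR are the absolute log2 fold change over the root of the F statistic of that test. Where a group is at 0 they do not give the precision of the change.

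Nicotine in Sst-neurons was tested for Apod, Cldn5, Col4a1, Col4a2 and Cd86. None of the 5 was called by edgeR, against 0% of the 6689 entries tested. None was called by DESeq2, against 0.269% of the entries, and none had an unadjusted p under 0.05, against 4.19%. Apod had a log2 fold change, Sst+Nic minus Sst, of 1.41 (SE 0.80, adjusted p = 1.00), and its groups did not overlap in CPM, which held for 13.9% of the 13575 entries with a count. The log2 fold change of Col4a2 was -0.09 (SE 0.86), that of Cldn5 -1.13 (SE 2.83), that of Col4a1 -2.46 (SE 2.10) and that of Cd86 -2.79 (SE 3.00). For Col4a2, Cldn5 and Cd86 the standard error was larger than the change. Without Sst+Nic replicate 3, Col4a1 moved to -8.65, Cldn5 to -8.71 and Cd86 to -9.04, since the single remaining Sst+Nic library was at 0 for each. Apod ran from 0.87 to 2.11 with each library left out.

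Nicotine in Thy1-neurons was tested for Apod, Cldn5, Col4a1 and Col4a2. None of the 4 was called by edgeR or DESeq2, which called 0% and 0.231% of 6048 entries. The 2 Thy1 libraries held no Cldn5, so it passed the filter only through the Thy1+Nic libraries that held it. Its unadjusted p of 0.0484 (adjusted p = 1.00) is for that reason no support for a difference. An unadjusted p under 0.05 was found for 4.37% of the entries. With 3 counts taken for each Thy1 library, the mean in Thy1+Nic was 7.71 times that limit, and 4.38 times without Thy1+Nic replicate 1. These values cover counting error only and give no least difference between the groups. Thy1+Nic replicate 2 was at 0 as well, so the groups overlapped, as did those of the other genes. Groups without overlap were found for 13.1% of the 13162 entries with a count. The log2 fold change was 0.17 for Col4a2 (SE 0.58), -0.55 for Col4a1 (SE 0.86) and 1.25 for Apod (SE 2.06), each smaller than its standard error. Apod ran from 0.22 to 11.5 with each library left out, the latter without Thy1 replicate 3, the library of that group that held it.

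The cell types were compared in saline, in nicotine and over both treatments. In saline 3 genes were tested (Apod, Col4a1 and Col4a2) and none was called, while edgeR called 1.72% of 6350 entries. DESeq2 called none of the 3 and 8.87% of the entries. None of the 3 had an unadjusted p under 0.05, against 16.3% of the entries, and none had groups without overlap in CPM, against 20.4% of those with a count. Col4a2 was at a log2 fold change, Sst minus Thy1, of -1.44 (SE 0.82), Col4a1 at -1.42 (SE 1.31) and Apod at 1.12 (SE 1.69). Without Thy1 replicate 2, Col4a2 was at -0.55 (adjusted p = 0.861) and Apod at 0.07, and without Thy1 replicate 3 Apod was at 11.7. The adjusted p of Col4a2 ran from 0.355 to 0.861 over the alternatives.

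In nicotine 5 genes were tested and none was called by edgeR, which called 0.507% of 6509 entries. Col4a2 had a log2 fold change, Sst+Nic minus Thy1+Nic, of -1.71 (SE 0.56), with an unadjusted p of 0.0163 and an adjusted p of 0.224. An unadjusted p under 0.05 was found for 15.8% of the entries. DESeq2, which called 7.80% of the entries, called Col4a2 at an adjusted p of 0.0493, and its adjusted p ran from 0.0493 to 0.682 over the alternatives. Col4a1 was at -3.31 (SE 1.59, adjusted p = 0.377) and Apod at 1.28 (SE 1.46, adjusted p = 0.820). With each library left out, Col4a1 ran from -9.25 (without Sst+Nic replicate 3) to -2.35 and Apod from 0.71 to 2.30. Apod was higher and Col4a1 lower in Sst+Nic without overlap of the groups, which held in either direction for 24.5% of the 13428 entries with a count. Cldn5 and Cd86 had log2 fold changes of -0.31 (SE 2.23) and -0.29 (SE 2.71).

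Over both treatments, with nicotine as a covariate and 5 libraries of each cell type, Col4a2 was at a log2 fold change, Sst-neurons minus Thy1-neurons, of -1.59 (SE 0.50, unadjusted p = 0.00816, adjusted p = 0.0805). The edgeR test called 0 of the 3 genes tested and 6.97% of 5252 entries. Among the checked entries alone it called 63 of 466, against 24 of 502 in saline and 9 of 517 in nicotine. An unadjusted p under 0.05 was found for 1 of the 3 genes, Col4a2, and for 20.8% of the entries. DESeq2, which called 12.9% of the entries, called Col4a2 (adjusted p = 0.0192), and its adjusted p ran from there to 0.286 over the alternatives. With no filter on low counts edgeR called Col4a2 (adjusted p = 0.0347) and Apod, and 4.09% of all entries. Col4a1 was at -2.34 (SE 1.14, adjusted p = 0.271) and Apod at 1.19 (SE 1.20, adjusted p = 0.651). For Apod the fit with no filter gave an adjusted p of 0.0236, and the alternatives ran from there to 0.779. Its log2 fold change ran from 0.80 to 2.52 with each library left out. None of the 7 genes had cell types that did not overlap in CPM, against 4.42% of the 16468 entries with a count.

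The interaction of nicotine and cell type was tested for 5 genes over all 10 libraries. None was called by edgeR, against 0% of 8242 entries, and none had an unadjusted p under 0.05, against 7.34%. DESeq2 called 0.303% of the entries and among them Cldn5 (adjusted p = 0.00671), a gene with both Thy1 libraries at 0 and for which edgeR gave an adjusted p of 0.734. Its adjusted p ran from 0.00671 to 1.00 over the alternatives.

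**Figure D3:**
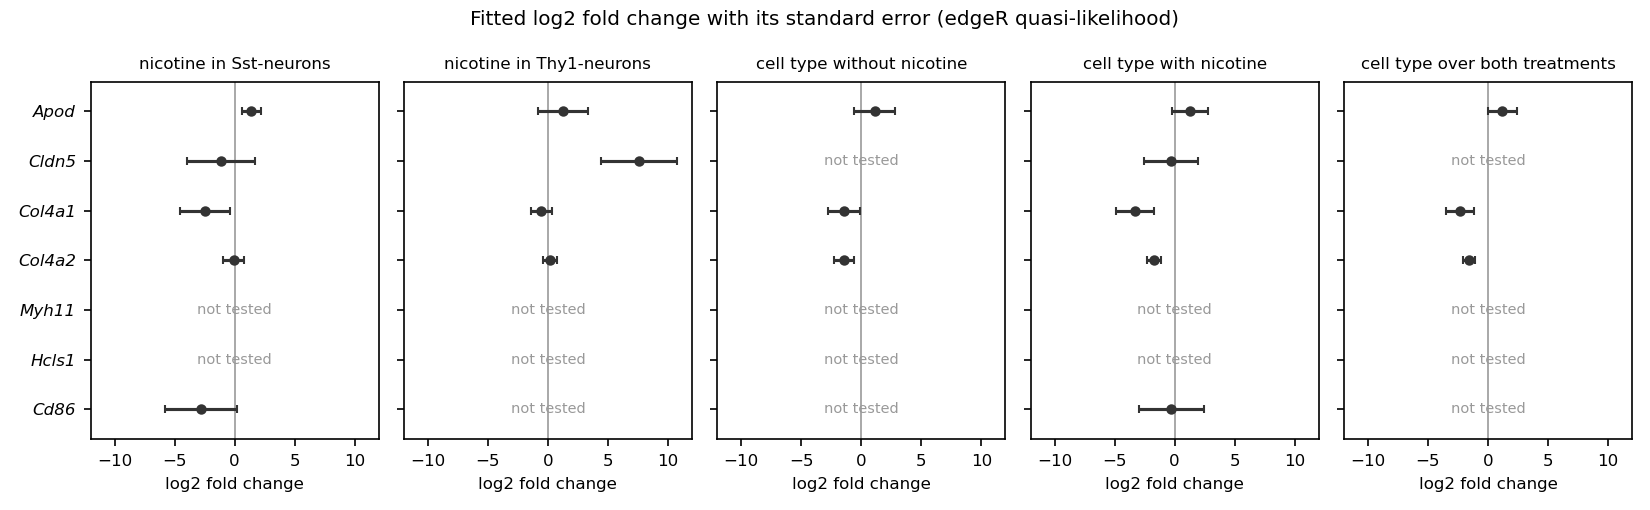
Points are fitted log2 fold changes (x axis) of each gene (y axis) in 5 comparisons. Bars are 1 standard error derived from the F statistic, and "not tested" marks genes that did not pass the filter on low counts. Col4a2 lies below 0 in all 3 comparisons of the cell types (-1.44, -1.71 and -1.59), and the Cldn5 value in Thy1-neurons rests on 2 libraries at 0.

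Other genes of the same cell types were read from the checked stretches. Of 7 vascular genes, 2 were found in all libraries and 1 in fewer than 5. The highest mean levels were those of Efnb2 (an ephrin of arterial endothelium that neurons also make), Adamts1 (a secreted protease) and Efemp2 (an elastic fibre protein). Of 6 glial genes, all were found in 5 or more libraries, led by Gstp1 (a glutathione transferase), Fstl1 (a secreted glycoprotein of astrocytes) and Pcx (pyruvate carboxylase). Of 19 immune and blood genes, 3 were at 0 in every library, 11 were found in 1 to 4 libraries and 5 in 5 or more. Rasgrp2 (an exchange factor of platelets that some neurons also make), Stxbp2 (a granule release factor) and Litaf (an endosomal protein) had the highest levels. The median of the mean levels was 20.9 CPM for the vascular, 45.5 CPM for the glial and 1.62 CPM for the immune and blood list.

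None of the vascular, glial, immune and blood genes tested was called by edgeR for nicotine in either cell type, or between the cell types in saline or in nicotine, where it called 0%, 0%, 1.72% and 0.507% of all entries. In saline, DESeq2 (8.87% of all entries called) and edgeR with no filter (3.28%) each called 1 vascular gene lower, 1 glial gene higher and 1 immune and blood gene higher in Sst-neurons. In nicotine, at 7.80% and 2.65% of all entries, each called 1 vascular and 1 glial gene lower and 1 immune and blood gene higher, and DESeq2 another immune and blood gene lower. Over both treatments, where 6.97% of all entries were called, 1 of the 4 vascular genes tested was called, Efnb2, which was lower in Sst-neurons by a log2 fold change of -1.47 (SE 0.36, adjusted p = 0.0247, edgeR). Of the 3 immune and blood genes tested 1 was called, Rasgrp2, which was higher in Sst-neurons by 2.37 (SE 0.41, adjusted p = 0.00366), and of the 6 glial genes tested 0 were called. These counts depended on the tool and the filter. DESeq2, with 12.9% of all entries called, called 1 of 4 vascular genes lower, 1 of 6 glial genes lower and 1 of 3 immune and blood genes higher in Sst-neurons. With no filter edgeR, at 4.09% of all entries, called 2 of 7 vascular genes lower, 1 of 6 glial genes higher and 1 lower, and 1 of 16 immune and blood genes higher. The median log2 fold change of a list is not read as a direction, since with no filter it moved from 0.34 to -1.40 for the vascular and from 1.03 to -1.34 for the immune and blood genes.

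The number of immune and blood genes found in a library ran from 3 in Sst replicate 1 to 11 in Thy1+Nic replicate 1, out of 19. In Sst replicate 3, where Cd86 peaked, Tnfsf13b had 42 fragments, Unc93b1 58 and Cd80 9. In Thy1+Nic replicate 1 the same genes had 22, 25 and 17 fragments. Only these 2 libraries, the same that held Hcls1, had a count on all of Hcls1, Cd86, Cd80, Tnfsf13b and Unc93b1, a set chosen after the values were seen. By the whole list Sst replicate 3 did not stand out, with 7 of 19 genes found, as in Thy1 replicate 3 and Thy1+Nic replicates 2 and 3, against 9 in Thy1 replicate 2. The mural genes Cd248 and Mylk were also picked out after their values were seen. Cd248, a pericyte and fibroblast protein, had 34 fragments in Thy1 replicate 3 and none elsewhere. Mylk, a myosin kinase of smooth muscle, had 15 and 3 fragments in Thy1 replicates 2 and 3 and 190, 40 and 40 in Thy1+Nic replicates 1, 2 and 3, and at most 1 fragment in a Sst-neuron library. Myh11 and Cd248 were at 0 in all 5 Sst-neuron libraries. Mylk did not overlap between the cell types in CPM, which held for 4.42% of the entries with a count. Other vascular genes of the list had higher means in Sst-neurons than in Thy1-neurons. These were Efemp2 (37.6 and 10.9 CPM), Adamts1 (57.1 and 44.6 CPM) and Arhgap31 (23.8 and 18.1 CPM). Heg1 and Efnb2 had lower means in Sst-neurons.

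**Figure D4:**
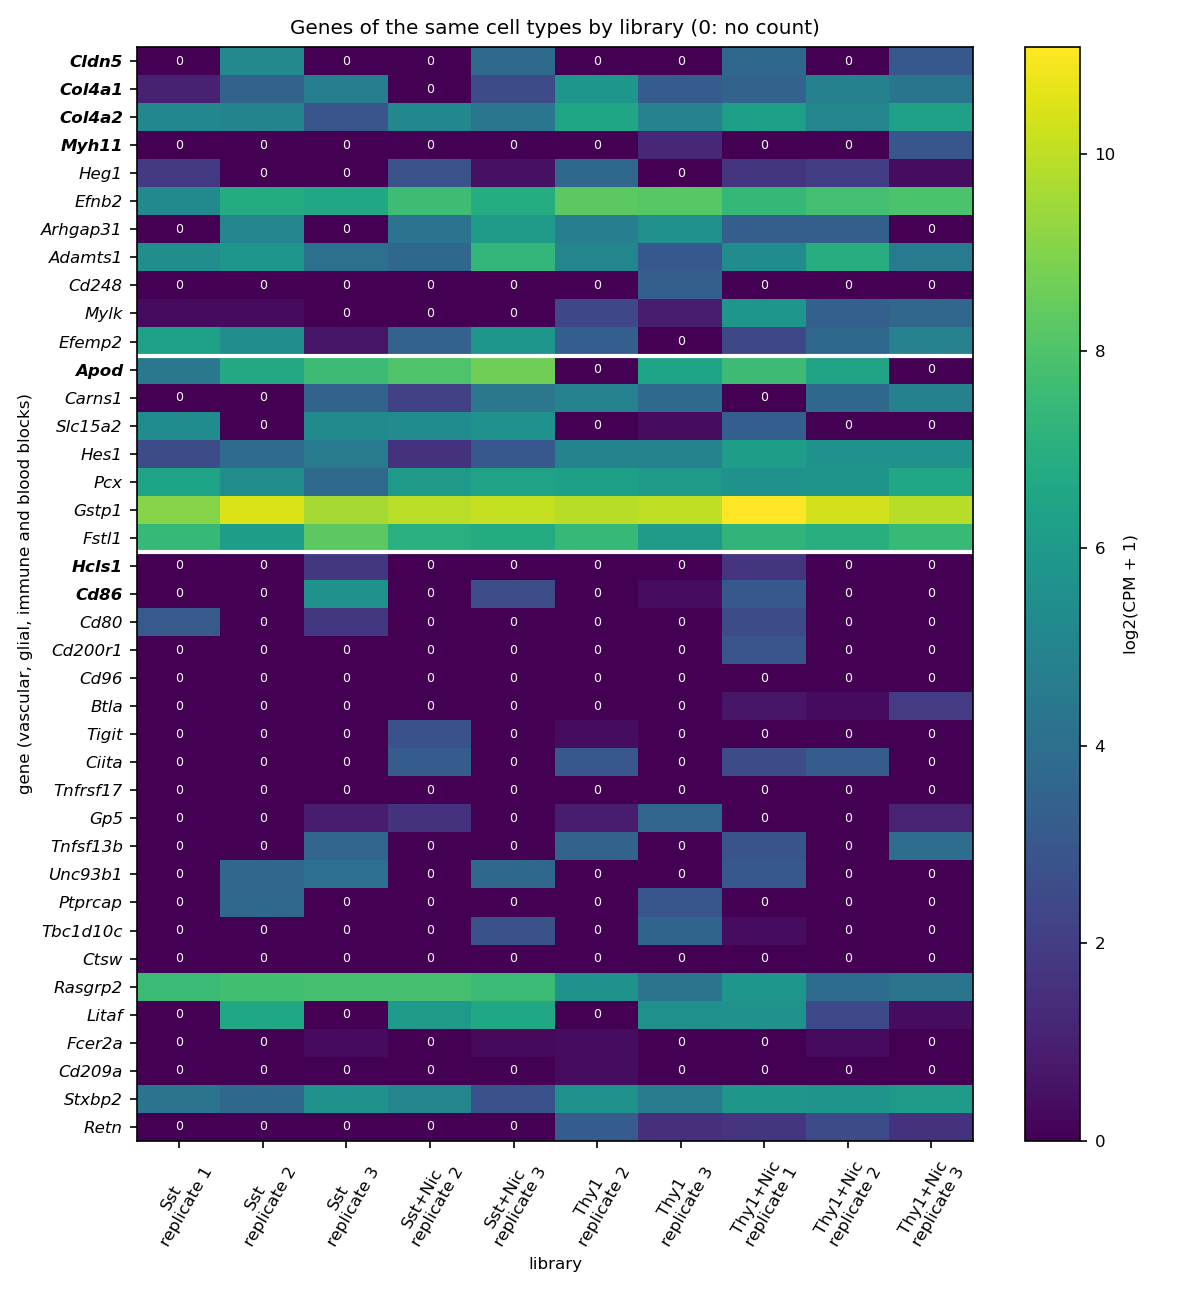
The colour scale gives log2(CPM + 1) of each gene (y axis, with the 7 genes in bold) in each library (x axis), and 0 marks a library without a count. The immune and blood block is mostly at 0, apart from Rasgrp2, Stxbp2 and Litaf, and Thy1+Nic replicate 1 holds 11 of its 19 list genes.

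The entries whose pattern over the 10 libraries was most like that of each gene with a count in 5 or more libraries were sought among 535 entries, by Pearson's r of log2(CPM + 1). Apod was most like Epha3 (r = 0.895), an ephrin receptor, and Gm5510 (r = 0.820), a predicted gene. Col4a2 was most like Adcy9 (r = 0.945), an adenylyl cyclase, and Cul4a (r = 0.840), a ubiquitin ligase scaffold. Col4a1 was most like Fbxo45 (r = 0.815), a ubiquitin ligase subunit, and Hes1 (r = 0.809), a transcription factor downstream of Notch. These are the highest of many values over points that share libraries and denominators, and are given as a description.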

How the data were processed

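Fragments were counted per gene entry by the authors, who aligned paired-end reads of SMARTer-amplified cDNA to GRCm38; the deposited counts are not normalized. TopHat and HTSeq are named in the submitters' processing notes, and the annotation used for counting is not given in the sources used here. Of 12 libraries, 10 had a column in the table used here. The 7 genes and the gene lists were chosen with earlier results of these data known.

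Entry names were checked against the study's group values, which are not reported. In stretches of chromosomes 7, 8, 16 and 19 the entries held a median of 99.8% of those values over 71 comparisons, with a range of 30.8% to 119% on chromosome 16. The stretches were chosen as runs of compared genes with values of the study's order, so this agreement follows in part from the choice. That of chromosome 7 rests on 2 comparisons. None of the 7 genes was itself compared. Elsewhere, 78.3% of 1633 comparisons held under 5%, so names there may be wrong. For Apod the nearest genes compared held 73.1% and 88.0%, and for Hcls1 and Cd86 they held 100.0% and 45.3%. The gene at 45.3% lies 5941 kb from Hcls1 and 6307 kb from Cd86. The 904 entries of the stretches include 13 mitochondrially encoded genes. Of the 20 immune and blood genes, 19 matched an entry.

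Counts were divided by library totals (CPM). Per kb levels used the union of exons in the GENCODE annotation of GRCm38. Fits used edgeR 4.0.16 in R 4.3.3 with TMM factors and filterByExpr (minimum count 10) on all entries, with groups compared in pairs as in the study, whose EBSeq test was not used here. The fits were also run on simulated counts with less spread than these data, which gives no measure of their power for sparse genes. Alternatives were DESeq2 1.42.0, RLE factors, no filter, the replicate number as a block, uniquely mapped reads as library sizes and each library left out. Levels were computed with Python 3.11.15, pandas 2.3.3 and statsmodels 0.14.6. Named genes were the 7 genes, the 3 genes of each list with the highest mean CPM and the 2 entries with the most similar pattern; others are marked where they appear. Promoter windows came from RefSeq (GRCm38.p6) and matched 5 of the 7 genes. Myh11 and Cd86 had a RefSeq position but no promoter window. Replicate numbers in the labels mark different mice.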

Additional observations from a re-analysis of the deposited data

How the results depend on the processing

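The number of the 7 genes called by edgeR was 0 in all 6 comparisons, and 66 of 70 alternative fits also gave 0. DESeq2 gave 1 in the comparison of cell types with nicotine, 1 over both treatments (Col4a2 in each) and 1 in the interaction (Cldn5). No filter on low counts gave 2 over both treatments (Col4a2 and Apod). The cause was not tested.

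The replicate number as a block called 0 of the 7 genes in every comparison. Deviations of libraries with the same number correlated between -0.079 and 0.027 over 13 pairs, so the numbers were not taken to pair the mice. With the replicate block, entries called with nicotine between cell types went from 33 to 9, and without nicotine from 109 to 59. Signs turned under the block for Col4a2 (0.55, nicotine in Sst-neurons), Col4a1 (0.18, nicotine in Thy1-neurons), Cldn5 (0.56) and Cd86 (5.58) between cell types with nicotine, and Col4a2 (0.0098) and Apod (-0.80) in the interaction.

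Of 285 alternative log2 fold changes 257 kept their sign and call, 23 turned and 5 became called. With each library left out, Col4a2 ran from -0.53 to 0.27 for nicotine in Sst-neurons and from -0.37 to 1.12 in Thy1-neurons, and Col4a1 from -1.28 to 1.26 in Thy1-neurons. Between cell types Col4a1 ran from -2.44 to 0.34 without nicotine, and with nicotine Cldn5 ran from -7.64 to 0.66 and Cd86 from -6.29 to 0.67. In the interaction Cd86 ran from -12.7 to 2.20, Col4a2 from -1.20 to 0.27 and Apod from -10.3 to 1.18. None of these was called. Where 1 library of a group was left, it was assumed to vary like those of the other group. Col4a2 stayed below 0 with each library left out in all 3 comparisons of cell types (-2.01 to -0.55 without nicotine, -2.05 to -1.47 with nicotine and -1.84 to -1.29 over both treatments, which uses the libraries of the other two). Uniquely mapped reads as library sizes moved the median of all entries between cell types over both treatments from 0.04 to 0.29. They took mean levels such as those of Col4a2 to between 2.87 and 8.20 in the 4 groups. Part of that drop in level is a change of unit, since these reads are counted singly and fragments are read pairs.

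With mitochondrially encoded genes out of the denominator, the sum of Cldn5, Col4a1 and Col4a2 was 44.3 CPM in Sst+Nic and 135 CPM in Thy1+Nic, and that of all 7 genes was 204 CPM in Thy1. Left-out libraries moved the first sum from 37.1 to 148 CPM in Thy1, the group with 2 libraries. At these totals, levels under about 1 CPM could not be told from 0.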

Other observations

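Retn, which encodes resistin, a hormone of fat and myeloid cells, belonged to the immune and blood list and was picked out after its values were seen. It had a count in all 5 Thy1-neuron libraries, between 7 and 29 fragments (1.92 to 8.31 CPM), and was at 0 in all 5 Sst-neuron libraries, with limits between 0.615 and 1.03 CPM. It was tested over both treatments only in the fit with no filter on low counts, where it was not called (adjusted p = 0.0743, edgeR). Groups of the cell types that did not overlap in CPM were found for 4.42% of the entries with a count. Slc15a2, a peptide transporter of astrocytes, was likewise picked out for its pattern, so that its p-values are no independent support. It was found in 4 of 5 Sst-neuron libraries at 116 to 236 fragments, and in the Thy1-neurons had 31 fragments in Thy1+Nic replicate 1, 1 fragment in Thy1 replicate 3 and none in the other 3 libraries. It was not called by edgeR over both treatments (log2 fold change 4.71, SE 1.75, adjusted p = 0.139) or DESeq2 (adjusted p = 0.0899). It was called by edgeR with no filter (adjusted p = 0.00017), as were 4.09% of all entries. In saline it was not called by edgeR (adjusted p = 0.271). It was called there by DESeq2 (adjusted p = 0.0365, 8.87% of all entries called) and by edgeR with no filter (adjusted p = 0.00695, 3.28% called). In nicotine no glial gene was called higher in Sst-neurons by edgeR, by DESeq2 or with no filter. The other 5 glial genes had log2 fold changes below 0 over both treatments, from -2.68 for Hes1 to -0.20 for Fstl1, none of them called by edgeR with the filter. For Fstl1 the mean CPM went the other way, at 159 in Sst-neurons and 139 in Thy1-neurons. Hes1, a transcription factor of the Notch pathway, is also shown for its pattern, so that its p-values are no independent support. It was between 2.06 and 21.9 CPM in Sst-neurons and between 30.1 and 72.0 CPM in Thy1-neurons, without overlap. Over both treatments edgeR did not call it (log2 fold change -2.68, SE 0.76, adjusted p = 0.0539). DESeq2 called it (adjusted p = 0.00066) and 12.9% of all entries. The edgeR fit with no filter called it (adjusted p = 0.00369) and 4.09% of all entries.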
